A study of Mus musculus with 10 samples.

Results

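Genes of the urea cycle and of mitochondrial ornithine handling were read in RNA-seq of mouse livers. The 8 genes described are *Nags*, *Cps1*, *Otc*, *Ass1*, *Asl*, *Slc25a15*, *Slc25a13* and *Oat*, of 15126 genes in the table. They belong to a group defined by function, which was drawn up with earlier results of these data known, and each was found by its symbol. The 10 liver samples came from male *db/db* mice, which lack a working leptin receptor and become obese and diabetic, aged 10 weeks. All mice had received an adeno-associated virus of serotype 8 (AAV8) in the tail vein 5 weeks earlier. In 5 samples it encoded eGFP (AAV8-Control) and in the other 5 it encoded a different transgene (AAV8-transgene). The labels do not tie each sample to a mouse, so n counts liver samples. The groups therefore share the receptor mutation, the age and the viral particle, and no uninjected or lean liver was analysed here. The promoter of the vector is not given in the sources used here.

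The urea cycle turns toxic ammonia into urea, and it runs in full mainly in the hepatocytes near the portal vein. Its opening steps take place in the mitochondrial matrix, where ammonia and bicarbonate become carbamoyl phosphate and then citrulline. The remaining steps take place in the cytosol and release urea and ornithine, and a carrier returns the ornithine to the matrix.

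Each level is given in CPM, the reads on a gene for every 1000000 reads counted on genes. The libraries held 19499795 to 35498596 reads in AAV8-Control and 21656201 to 26124038 in AAV8-transgene, totals that were inferred from the CPM values. The tissue is labelled as liver, although other label fields describe cultured primary hepatocytes. The sum of 8 hepatocyte markers, led by *Alb*, was 102919 to 140149 CPM in AAV8-Control and 113001 to 128486 CPM in AAV8-transgene. Markers of other liver cells were also present. The 8 Kupffer cell markers summed to 134 to 270 CPM in AAV8-Control and 136 to 230 CPM in AAV8-transgene. The 8 sinusoidal endothelial markers summed to 138 to 278 CPM and 171 to 242 CPM. The ranges of both groups overlapped for each of the 10 marker lists. Of the 8 hepatocyte markers, *Tat* (log2 fold change 0.50), a tyrosine aminotransferase, and *Hnf4a* (0.23) had an unadjusted p under 0.05 with limma. The other 6 ranged from -0.47 for *Apoa1* to 0.16 for *Apob*, with *Alb* at 0.010, and over the 8 the median was 0.057 and 5 had a higher mean. Of the markers of cells other than hepatocytes, 1 had an unadjusted p under 0.05, *Cidec* of the adipocyte list (log2 fold change -1.04), a lipid droplet gene that fatty hepatocytes also express. Of all 11027 genes tested with limma, 4.99% were higher and 2.97% lower at that threshold. *Tat* and *Cidec* were picked out after their values were seen. The adipocyte hormone *Adipoq* averaged 0.459 CPM in controls and 0.153 CPM with AAV8-transgene, too low to be tested. Single livers weighed on both means, at 1.23 CPM in AAV8-Control replicate 1 and 0.396 CPM in AAV8-transgene replicate 1. The part of other cells in the results was not tested. In bulk tissue, fewer cells of a type and less RNA per cell cannot be told apart.

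All 8 members were higher on average in AAV8-transgene livers, by a log2 fold change of 0.015 for *Otc* to 0.33 for *Cps1*. None passed the adjusted threshold of 0.05 with limma, and for each the ranges of the groups overlapped. Levels were compared on log2(CPM + 1) with limma over the 11027 genes that averaged at least 1 CPM, which all 8 members did. Adjusted p-values are those of limma with Benjamini-Hochberg adjustment over these genes. Over all genes tested, 0.0181% had an adjusted p under 0.05, against 0 of the 8 members. The count of members was also 0 with edgeR, which called 0.0181% of all genes. It was 1 with DESeq2, which called 17 genes, 0.369% of the 4612 to which it gave an adjusted p. At an unadjusted p under 0.05, 3 members were higher (*Cps1*, *Ass1* and *Asl*) and 0 were lower, against 4.99% of all genes tested higher, 2.97% lower and 7.95% in either direction. *Ass1* and *Asl* were under 0.05 in each of the 19 alternative fits, *Cps1* in 11 and *Slc25a15*, which missed it here, in 7. The count of 3 became 5 without AAV8-transgene replicate 1 or without replicate 2, and 2 without AAV8-Control replicate 2 or 3 or without AAV8-transgene replicate 3, 4 or 5. The median log2 fold change was 0.19 over the 8 members and 0.019 over all genes tested. Higher means were common, as 55.9% of all genes tested had a higher mean in AAV8-transgene. That excess depended on the scaling of the CPM as deposited. With TMM factors 51.0% had a higher mean, the median of all genes was 0.0031, and the calls at an unadjusted p under 0.05 went from 550 higher and 327 lower to 537 and 440. The groups were apart for 0 members, against 0.472% of all genes tested that were higher without overlap and 0.907% without overlap in either direction. An exact permutation p below comes from all 252 assignments of 5 of the 10 livers, two-sided, and cannot be smaller than 0.00794.

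**Figure D1:**
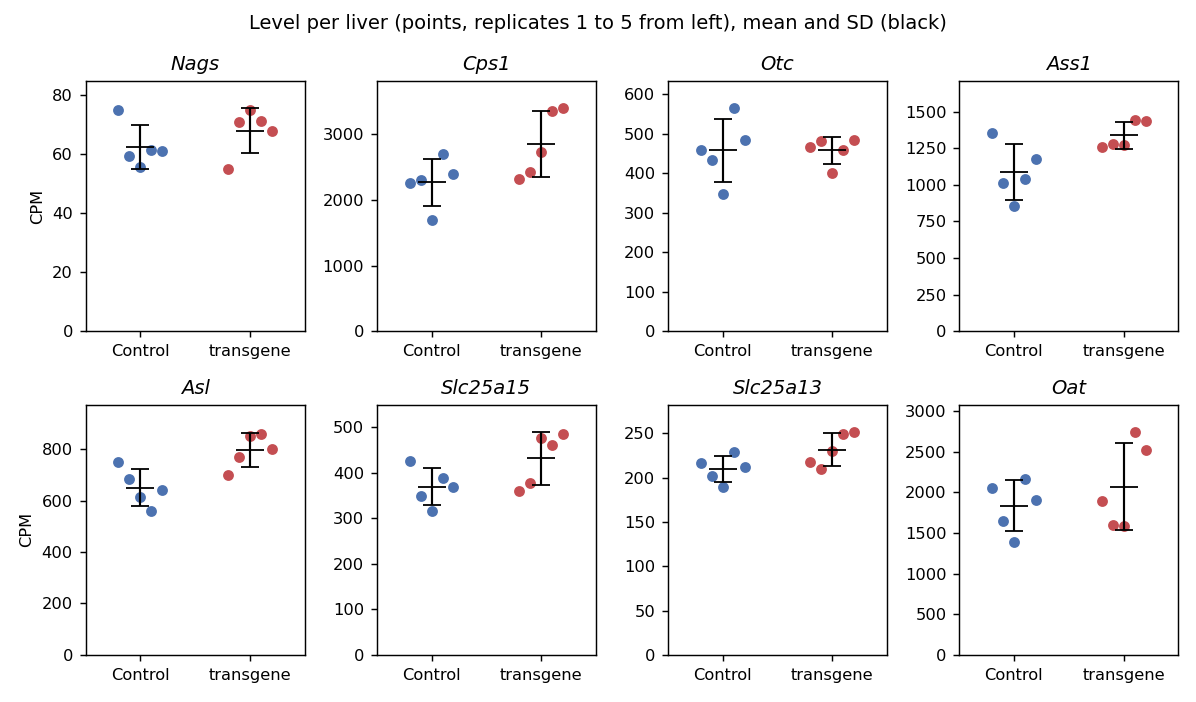
Level of each of the 8 members in CPM (vertical axes, each from 0) in the 5 AAV8-Control livers (blue) and the 5 AAV8-transgene livers (red). Points are livers, replicates 1 to 5 from left to right within a group, and the black marks are the mean and SD. The groups overlap for every member, and for *Asl* 4 AAV8-transgene livers lie above the highest AAV8-Control liver.

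**Figure D2:**
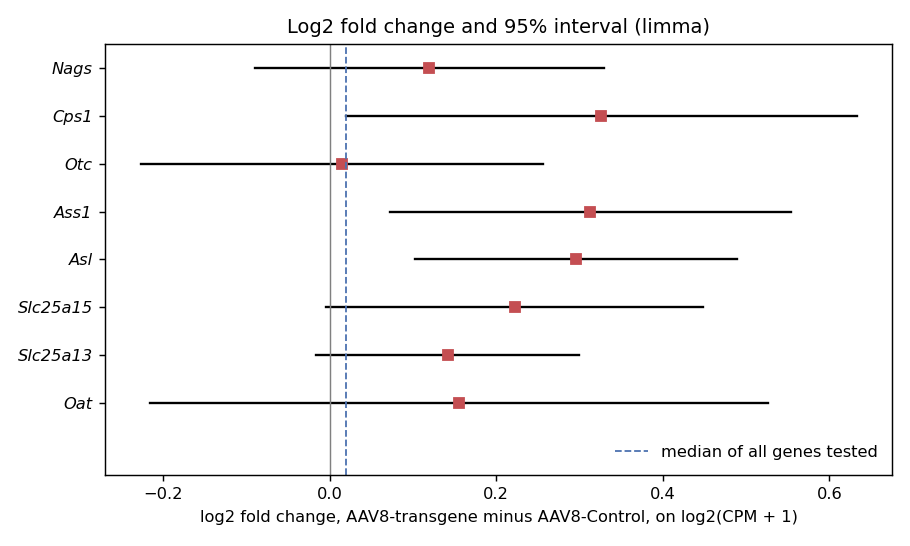
Log2 fold change on log2(CPM + 1) (horizontal axis, AAV8-transgene minus AAV8-Control) of the 8 members, with the 95% interval from limma as a line. The dashed line is the median of all genes tested, 0.019. The intervals of *Cps1*, *Ass1* and *Asl* lie above 0 and those of the other 5 members include it.

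The mitochondrial entry steps had log2 fold changes of 0.12, 0.33 and 0.015, with overlapping intervals, and the differences between these genes were not tested. *Nags* (ENSMUSG00000048217, chromosome 11, 102145513 to 102149477, forward strand) makes N-acetylglutamate, the obligate activator of carbamoyl phosphate synthetase 1. It was at 75.1, 59.3, 55.6, 61.3 and 61.1 CPM in AAV8-Control and at 55.0, 70.9, 75.0, 71.1 and 67.9 CPM in AAV8-transgene. The lowest of all 10 livers was AAV8-transgene replicate 1 and the highest was AAV8-Control replicate 1, so the groups overlapped over their full range. The log2 fold change was 0.12 (95% interval -0.089 to 0.33, exact permutation p = 0.278). Without AAV8-transgene replicate 1 it was 0.19. The exons of *Nags* share 443 bases with the antisense gene *Gm11586*, on the opposite strand. The study counted unambiguous reads only, and the sources used here do not state that strand was used in counting. How reads in that stretch were handled is therefore not known, and they may have been left out of the *Nags* count.

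*Cps1* (ENSMUSG00000025991, chromosome 1, 67123026 to 67231259, forward strand, 38 exons) encodes carbamoyl phosphate synthetase 1, which fixes ammonia in the matrix. It had more reads than any other member, at 2253, 2301, 1702, 2696 and 2395 CPM in AAV8-Control. In AAV8-transgene it was at 2327, 2432, 2729, 3356 and 3404 CPM. AAV8-transgene replicates 3, 4 and 5 lay above every control, whereas replicates 1 and 2 lay within the control range, and AAV8-Control replicate 3 was the lowest liver. The log2 fold change was 0.33 (95% interval 0.019 to 0.63, adjusted p = 0.617, limma), with an exact permutation p of 0.0635. It ranged from 0.23 without AAV8-Control replicate 3 to 0.39 without AAV8-transgene replicate 1. The unadjusted p was under 0.05 in 4 of these 10 fits, and it was 0.0390 with all livers.

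*Otc* (ENSMUSG00000031173, chromosome X, 10252305 to 10321024, forward strand, 10 exons) encodes ornithine transcarbamylase, which joins carbamoyl phosphate to ornithine. It was at 459, 432, 348, 566 and 485 CPM in AAV8-Control and at 466, 481, 400.2, 459.6 and 484 CPM in AAV8-transgene. All 5 AAV8-transgene livers lay inside the control range. The group means were 458 ± 79.1 and 458 ± 34.0 CPM (SD, n = 5 each), and the log2 fold change of 0.015 had a 95% interval of -14.5% to 19.4%. Its sign turned without AAV8-Control replicate 2 (-0.0016), AAV8-Control replicate 3 (-0.079), AAV8-transgene replicate 2 (-0.0036) or AAV8-transgene replicate 5 (-0.0057), and it also turned under other scalings. The data give *Otc* no direction.

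The ratio of *Cps1* to *Otc* reads was looked at after these values were seen, so it is a description without a test. It was 4.91, 5.32, 4.89, 4.77 and 4.93 in AAV8-Control, where both genes moved together from liver to liver. In AAV8-transgene it was 4.99 and 5.05 in replicates 1 and 2, and 6.82, 7.30 and 7.03 in replicates 3, 4 and 5. The control ratio varied by 4.24% of its mean, less than the control ratio of any other member to *Otc*. Of the AAV8-transgene livers, 2 thus lay in the control range and 3 above it, with no liver between 5.32 and 6.82. The ratio of 6.82 rests in part on the low *Otc* value of replicate 3, 400.2 CPM. The same 3 livers lay above every control in the ratios of *Ass1* and *Slc25a15* to *Otc*. Fewer AAV8-transgene livers did so for *Asl*, *Nags*, *Oat* and *Slc25a13*.

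**Figure D3:**
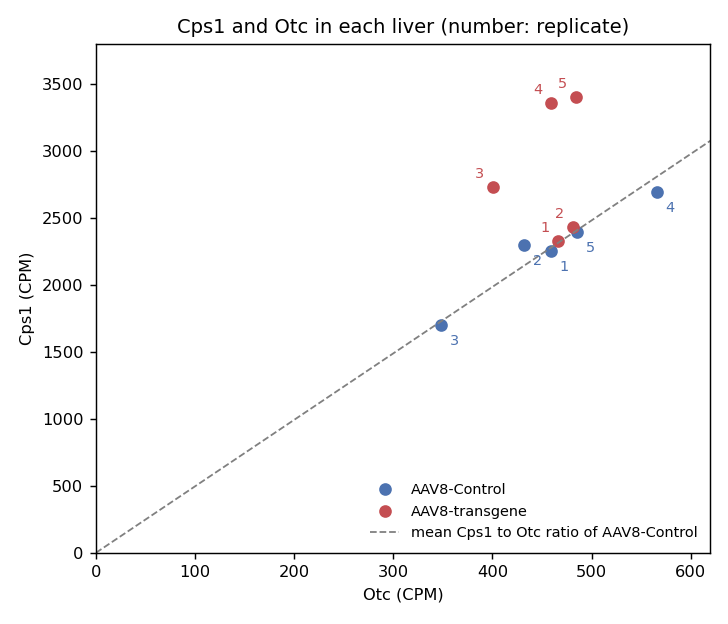
*Cps1* level (vertical axis, CPM) against *Otc* level (horizontal axis, CPM) in each liver, numbered by replicate, for AAV8-Control (blue) and AAV8-transgene (red). The dashed line has the mean control ratio, 4.96. The controls and AAV8-transgene replicates 1 and 2 lie near the line, and AAV8-transgene replicates 3, 4 and 5 lie above it.

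The cytosolic enzymes that build and split argininosuccinate had the smallest p-values of the members. *Ass1* (ENSMUSG00000076441, chromosome 2, 31470207 to 31520672, forward strand, 16 exons) encodes argininosuccinate synthetase, which joins citrulline to aspartate. It was at 1354, 1012, 853, 1041 and 1176 CPM in AAV8-Control and at 1261, 1282, 1269, 1443 and 1433 CPM in AAV8-transgene. Of the controls, 4 lay below the lowest AAV8-transgene liver, and AAV8-Control replicate 1 lay within the AAV8-transgene range. The control livers were also the more scattered, with a coefficient of variation of 17.3% against 6.88%. Its log2 fold change was 0.31 (95% interval 0.072 to 0.55, adjusted p = 0.617, limma) with an exact permutation p of 0.0317, and it ranged from 0.23 without AAV8-Control replicate 3 to 0.40 without AAV8-Control replicate 1.

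*Asl* (ENSMUSG00000025533, chromosome 5, 130011258 to 130029247, reverse strand, 16 exons) encodes argininosuccinate lyase, which releases arginine and fumarate. It was at 751, 685, 613, 559 and 641 CPM in AAV8-Control and at 701, 768, 853, 859.8 and 799.6 CPM in AAV8-transgene. AAV8-transgene replicates 2 to 5 lay above every control, and replicate 1 lay below AAV8-Control replicate 1 alone. *Asl* differed by 0.30 on the log2 scale (95% interval 0.10 to 0.49, adjusted p = 0.617, limma) and had an exact permutation p of 0.0159, and its p was number 77 in the order of all genes tested. DESeq2 on recovered reads gave *Asl* an adjusted p of 0.0476 at a log2 fold change of 0.27. Over the other alternatives, including each liver left out, none gave *Asl* an adjusted p under 0.05.

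*Cps1*, *Otc*, *Ass1* and *Asl* together took 4464.5 ± 556 CPM in controls and 5442 ± 644 CPM with AAV8-transgene (SD, n = 5 each). Their ranges overlapped, at 3517 to 4862 CPM and 4755 to 6121 CPM. All 8 members together took 0.694% ± 0.0911 and 0.824% ± 0.120 of the reads. The number of the 8 members above its own control mean was 7, 2, 0, 5 and 5 in AAV8-Control replicates 1 to 5. In AAV8-transgene it was 6, 7, 6, 8 and 8. AAV8-Control replicate 3 was the lowest control for 7 of the members.

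The mitochondrial carriers had small differences. *Slc25a15* (ENSMUSG00000031482, chromosome 8, 22375551 to 22398597, reverse strand) encodes the carrier that exchanges cytosolic ornithine for citrulline. It was at 425, 349, 315, 388 and 368 CPM in AAV8-Control and at 360, 378, 475, 461 and 485 CPM in AAV8-transgene. As for *Cps1*, AAV8-transgene replicates 3, 4 and 5 lay above every control and replicates 1 and 2 did not. The log2 fold change of *Slc25a15* was 0.22 (95% interval -0.0039 to 0.45, exact permutation p = 0.0794).

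*Slc25a13* (ENSMUSG00000015112, chromosome 6, 6041218 to 6217173, reverse strand) encodes citrin, the carrier that exports aspartate for argininosuccinate synthesis. It was at 217, 202, 190, 228 and 212 CPM in AAV8-Control and at 218, 210.1, 230, 249 and 252 CPM in AAV8-transgene. AAV8-transgene replicates 3, 4 and 5 were again the highest livers. The log2 fold change was 0.14 (95% interval -0.016 to 0.30, exact permutation p = 0.0873).

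*Oat* (ENSMUSG00000030934, chromosome 7, 132557478 to 132576398, reverse strand, 10 exons) encodes ornithine aminotransferase, the matrix enzyme that converts ornithine toward glutamate and proline. In liver it is known mainly from the cells around the central vein. It was at 2050.0, 1646, 1393, 2169.6 and 1908 CPM in AAV8-Control and at 1891, 1601, 1589, 2748 and 2519.6 CPM in AAV8-transgene. AAV8-transgene replicates 4 and 5 lay above every control and the other three within the control range, which gave a coefficient of variation of 25.9% in AAV8-transgene. The log2 fold change was 0.15 (95% interval -0.22 to 0.53, exact permutation p = 0.476), and without AAV8-transgene replicate 4 it was 0.043.

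Per kilobase of exon, the order of the members in AAV8-Control was *Oat* (777 CPM per kilobase), *Ass1* (450.4), *Cps1* (409), *Asl* (134), *Otc* (108), *Slc25a15* (65.6), *Slc25a13* (55.2) and *Nags* (22.0). Neighbours whose livers overlapped in AAV8-Control were *Ass1* with *Cps1*, *Asl* with *Otc*, and *Slc25a15* with *Slc25a13*. The order was the same in AAV8-transgene, but *Asl* (165) and *Otc* (108) did not overlap there. Which neighbours overlapped depended on the length used. With the longest transcript as the length, the order was again the same. In AAV8-Control, *Oat* (852) then overlapped *Ass1* (641), and *Cps1* (409) overlapped *Asl* (269). By that length *Ass1* did not overlap *Cps1*, and *Asl* did not overlap *Otc* (153).

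**Figure D4:**
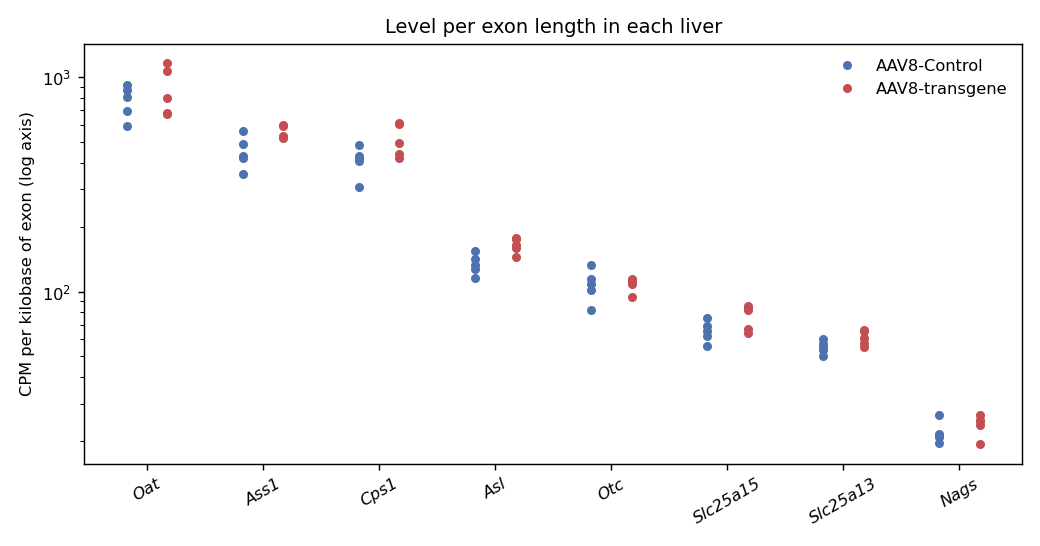
CPM per kilobase of exon (vertical axis, log scale) of each member in each AAV8-Control (blue) and AAV8-transgene (red) liver, in the order of the control means. *Oat* lies highest in both groups, at 777 and 877 CPM per kilobase on average, and *Nags* lowest, at 22.0 and 24.0.

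The variation of the members between livers was compared within groups. Correlations were taken over the 10 livers on log2(CPM + 1) after the group mean was removed, for the 28 pairs of the 8 members. Exact permutation p-values came from all 14400 orderings within groups, and they were adjusted over the 36 pairs computed in all. Of the 28 pairs, 27 had a Pearson r above 0, and the median r was 0.61. For comparison, the median r of a member to all genes tested ranged from -0.10 for *Otc* to 0.28 for *Nags*. Without the 2 livers farthest from the median of the first gene of each pair, 23 pairs had an r above 0 and 5 had one below, and the median r was 0.45. *Cps1* and *Nags* went from 0.40 to -0.36, and *Otc* and *Slc25a15* from 0.29 to -0.22, so those relations rest on the livers left out. An unadjusted exact permutation p under 0.05 was reached by 12 pairs with Pearson's r, by 11 with Spearman's rho and by 10 with both. An adjusted p under 0.05 was reached by 0 pairs with either measure. The closest pair was *Cps1* and *Slc25a13* (r = 0.94, rho = 0.92, exact permutation p = 0.00167, adjusted 0.0600), and r was 0.93 without the 2 livers farthest from the *Cps1* median. *Slc25a13* and *Oat* followed (r = 0.90, rho = 0.87, exact permutation p = 0.00382, adjusted 0.0679, and r = 0.83 without 2 livers). *Nags* and *Slc25a15* had an r of 0.77 (rho = 0.82, exact permutation p = 0.00660, adjusted 0.0679), which was 0.57 without 2 livers. The lowest r was -0.30, for *Otc* and *Asl* (rho = -0.41, exact permutation p = 0.508, adjusted 0.653, and r = -0.39 without 2 livers).

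Among all genes tested, the gene most like each member by the same r over the 10 livers was named, as a description without a p. These were *Lifr* for *Cps1* (r = 0.96), *Bco2* for *Otc* (0.95), *Hpd* for *Ass1* (0.96), and *Rnf123* for *Asl* (0.97). For the others they were *Mief2* for *Nags* (0.95), *Rbl2* for *Slc25a15* (0.96), *Slc35a5* for *Slc25a13* (0.98) and *Klf1* for *Oat* (0.97). High r values were common, as 7.04% (*Otc*) to 28.5% (*Slc25a15*) of all genes tested had an r above 0.5 to a member. The part of the small number of livers in this was not tested. Most members had many other genes closer to them than any fellow member. The best fellow member stood at rank 13 for *Cps1*, 16 for *Slc25a13* and 35 for *Oat*, but at 234 for *Slc25a15*, 321 for *Otc*, 326 for *Ass1*, 471 for *Nags* and 548 for *Asl*.

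Promoter sequences are shown for *Slc25a13* and *Oat*, a pair with one of the highest r values, and for *Slc25a15* and *Otc* beside them. Those genes varied with the pair as well. The r of *Slc25a15* was 0.85 to *Slc25a13* and 0.62 to *Oat*, and the r of *Otc* was 0.58 and 0.63. A relation between promoter letters and r was not tested. RefSeq windows on GRCm38.p6 were found for 6 of the 8 members, and there was no entry for *Cps1* and *Asl*. The 120 bases that end just before the RefSeq start site are printed on the strand of the gene, and capitals mark CCAAT on either strand (read as ATTGG on the other). The windows are chr6:6217174-6217293 (reverse strand) for *Slc25a13*, chr7:132576399-132576518 (reverse) for *Oat*, chr8:22398622-22398741 (reverse) for *Slc25a15* and chrX:10252185-10252304 (forward) for *Otc*.
Slc25a13: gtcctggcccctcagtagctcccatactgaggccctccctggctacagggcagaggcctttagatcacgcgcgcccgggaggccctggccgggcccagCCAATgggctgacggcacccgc
Oat: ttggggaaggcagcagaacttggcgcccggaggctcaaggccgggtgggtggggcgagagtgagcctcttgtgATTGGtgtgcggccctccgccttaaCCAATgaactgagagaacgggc
Slc25a15: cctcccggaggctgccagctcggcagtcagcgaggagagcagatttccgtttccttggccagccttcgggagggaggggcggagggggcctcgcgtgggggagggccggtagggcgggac
Otc: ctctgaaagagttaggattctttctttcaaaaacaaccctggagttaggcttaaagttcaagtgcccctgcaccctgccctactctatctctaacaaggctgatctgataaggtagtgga
Over the 250 bases before the start, CCAAT was found 1 time in *Slc25a13*, at -22, and 2 times in *Oat*, at -47 and -22, counted from the start site. It was found in none of the other 4 matched members, *Otc*, *Ass1*, *Nags* and *Slc25a15*. Over all 32851 windows of that length, 33.8% held CCAAT on either strand, which is near the share of the 6 matched members that held it. None of the 6 matched members held TATAAA (12.4% of all windows), TTGCNNAA, a C/EBP-type pattern (9.56%), or TGACGTCA, the full cAMP response element (1.55%). A match is a run of letters and was not tested as a binding site.

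The genes around the cycle were then counted in lists by role. Of the 64 list genes tested, each counted once, 14 (21.9%) were higher and 1 (1.56%) was lower at an unadjusted p under 0.05, against 4.99% and 2.97% of all genes tested. A higher mean in AAV8-transgene was found for 44 of the 64 (68.8%), against 55.9% of all genes tested, and the median log2 fold change was 0.064 against 0.019. None had an adjusted p under 0.05 (lowest 0.411, *Sds*, limma). The lists were also drawn up with earlier results known, so these counts are descriptions. In the supply of ammonia, glutamate and bicarbonate, 9 of 12 genes had a higher mean, and the median log2 fold change was 0.076. *Gls2*, the liver glutaminase, averaged 533 ± 79.8 CPM in the controls and 675 ± 72.2 CPM with AAV8-transgene (SD, n = 5 each; exact permutation p = 0.0159). *Slc25a22*, a mitochondrial glutamate carrier, had groups that did not overlap, at 178 to 193 CPM and 193 to 297 CPM. The gap was narrow, as the highest control was at 192.7 CPM and the lowest AAV8-transgene liver at 192.8 CPM. *Sirt5*, which removes acyl groups from carbamoyl phosphate synthetase 1, had a log2 fold change of -0.25 (unadjusted p = 0.0405, limma; exact permutation p = 0.0635). The list's most abundant genes per kilobase, the glutamine carrier *Slc38a3* and glutamine synthetase *Glul*, had log2 fold changes of 0.15 and -0.18 and did not pass.

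In the supply of aspartate and the return of fumarate, 3 of 8 genes had a higher mean, with a median of -0.029. *Got1*, the cytosolic aspartate aminotransferase, was at 255, 219, 191, 209 and 239.7 CPM in AAV8-Control and at 328, 238, 345, 256 and 399.96 CPM in AAV8-transgene (log2 fold change 0.47, exact permutation p = 0.0317). The overlap came from AAV8-transgene replicate 2, within the control range. *Mdh1* and *Pcx*, the most abundant of that list, had log2 fold changes of -0.065 and -0.080. Of 12 genes for ornithine, proline and basic amino acid carriers, 10 were tested, 8 had a higher mean and the median was 0.082. *Slc7a2*, the main cationic amino acid carrier of hepatocytes, had a log2 fold change of 0.51 (exact permutation p = 0.0635), and *Prodh2*, a hydroxyproline dehydrogenase, of 0.28 (exact permutation p = 0.0317). *Aldh4a1*, the most abundant of these, had 0.086.

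For urea and water exit, 2 of 6 genes could be tested, and both had lower means. *Aqp8* was at 145 ± 37.6 CPM and 103 ± 50.5 CPM (log2 fold change -0.59, exact permutation p = 0.135), and *Aqp9* had a log2 fold change of -0.12. *Slc14a1*, a urea transporter, was below the filter. Among 14 hormone and transcription regulators of urea cycle genes, 12 had a higher mean and the median was 0.086. The 4 at an unadjusted p under 0.05 were the liver transcription factor *Hnf4a* (0.23), the CREB coactivator *Crtc2* (0.24), the fasting-responsive coactivator *Ppargc1a* (0.44) and *Klf15* (0.34), a factor for amino acid breakdown. Their exact permutation p-values were 0.0635, 0.0556, 0.0714 and 0.0794, none under 0.05. Over all genes tested, 4.99% were higher at an unadjusted p under 0.05 with limma. *Hnf4a* was also among the hepatocyte markers, and together with *Cebpa* (0.059) it was the most abundant of the regulators.

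**Figure D5:**
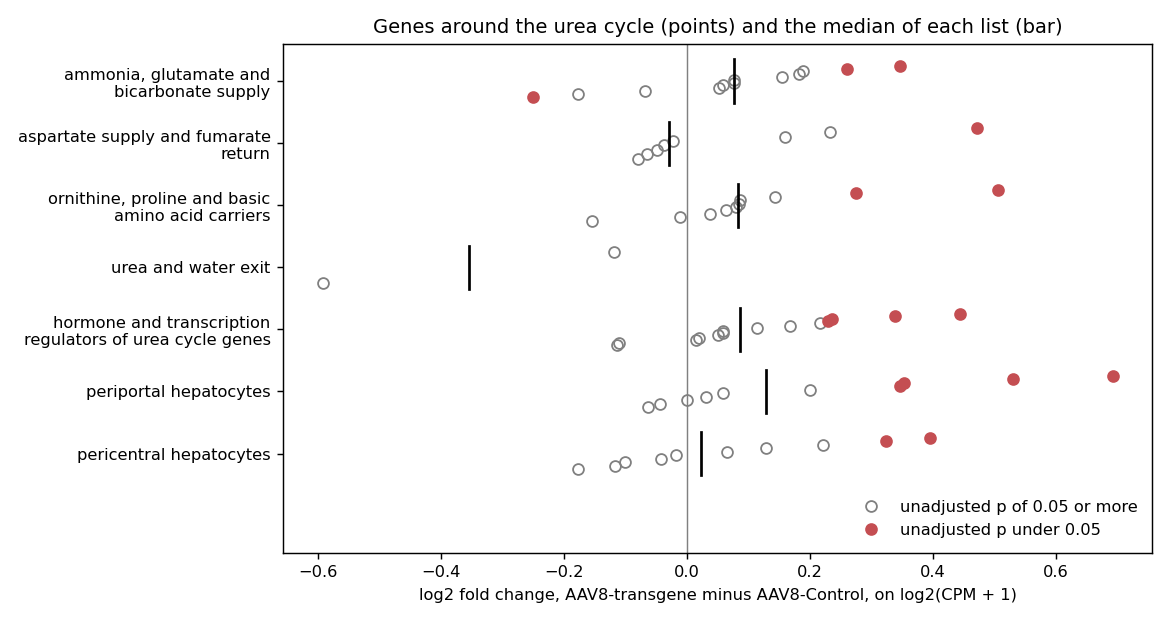
Log2 fold change on log2(CPM + 1) (horizontal axis, AAV8-transgene minus AAV8-Control) of each tested gene of 7 lists around the urea cycle. Filled points have an unadjusted p under 0.05 from limma, open points do not, and black bars are list medians, from -0.36 for urea and water exit to 0.13 for periportal hepatocytes. *Gls2* and *Glul* each appear in a pair of lists.

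Markers of the liver zones were read beside the members, since the cycle is stronger near the portal vein. Of 10 periportal genes, 8 had a higher mean, with a median of 0.13, and 4 had an unadjusted p under 0.05, all of them higher. Over all genes tested, 55.9% had a higher mean and 4.99% were higher at that threshold. *Sds*, serine dehydratase, was at 145, 156, 120.5, 146 and 134 CPM in AAV8-Control and at 201, 185, 253, 179 and 201 CPM in AAV8-transgene, without overlap (exact permutation p = 0.00794). *Hal*, histidine ammonia lyase, had a log2 fold change of 0.35 and *Pck1*, an enzyme of gluconeogenesis, of 0.69 (exact permutation p = 0.0159 and 0.0714). *Gls2*, which is in this list too, had 0.35. *Cyp2f2*, the most abundant periportal marker, had -0.063. Of 10 pericentral genes tested, 5 had a higher mean, with a median of 0.023, and 2 were higher at an unadjusted p under 0.05. Such calls were thus found in the lists of both zones. *Axin2* (0.32) and *Tbx3* (0.39), both Wnt-responsive, passed the unadjusted threshold with limma (exact permutation p = 0.0635 and 0.103), while the abundant *Cyp2e1* (-0.10) and *Rgn* (-0.018) did not. The part of zonation in the levels of the urea cycle genes was not tested.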

How the data were processed

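Liver RNA of *db/db* mice (5 AAV8-Control and 5 AAV8-transgene samples) was poly-A selected and sequenced as single reads of 50 bases. Per the submitters' processing notes, reads were aligned with STAR 2.0.4b and counted with Subread featureCounts 1.4.5 on GRCm38.p2, with Ensembl release 76. The authors deposited CPM values for protein-coding genes. The listed genes made up 97.5% to 98.3% of each total, and scaling to all reads counted on genes was inferred from the values. How the CPM were made is not given in the sources used here. The table has 15236 lines for 15126 genes, of which 110 are repeats.

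The 11027 genes averaging at least 1 CPM were tested on log2(CPM + 1) with limma 3.58.1 (trended prior, group only, Benjamini-Hochberg) in R 4.3.3, tested on simulated data beforehand. Exact permutation tests used numpy 2.4.6 and Python 3.11.15, and scipy 1.17.1 gave the ranks and the adjustment for the correlations. Whole reads were recovered from 100% of the CPM values within 0.01 of a read, and tested with edgeR 4.0.16 (2 genes called) and DESeq2 1.42.0 (17 called) as alternatives, beside other scalings, filters, pseudocounts, the replicate block and each liver left out. Gene positions and lengths came from GENCODE M21 (GRCm38), matched for 15119 genes.

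The group has 10 genes by its rule, all found in the table; 8 are described, and some genes, with the identity of the transgene, are not reported here. The members and lists were chosen with earlier results of these data known. Named beyond the members were, per pathway list, the 2 most abundant genes per kilobase and every gene with an unadjusted p under 0.05, plus the gene most like each member. Marker genes were to be named only as the highest or lowest of a list, as *Alb* was. *Tat*, *Hnf4a* as a marker, *Apoa1*, *Apob*, *Cidec*, *Adipoq*, *Slc14a1* and the overlapping gene *Gm11586* were named outside this rule. The study calls the injected *db/db* groups littermates, but the litter and extraction batch of each sample are not given in the sources used here. The labels do not tie each sample to a mouse, so p-values measure the spread between these samples, which may be in part technical.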

Additional observations from a re-analysis of the deposited data

Results flagged for a closer look

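Of the 16 groups of 5 livers examined, one for each member and treatment, 1 held a liver that stood apart from the other four. *Otc* in AAV8-transgene replicate 3 was at 400.2 CPM, and its gap to the next liver was 0.729 of the range of the group, above the critical value of 0.71 for 5 samples (Dixon's test at 95%). Chance alone flags about 1 in 20 such groups.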

How the results depend on the processing

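The count of members with an adjusted p under 0.05 was 0 in every alternative but DESeq2, where it was 1, *Asl*. The count at an unadjusted p under 0.05, 3 as reported, was 2 to 5 on leaving out single livers and 2 to 4 otherwise. *Cps1* fell out of that count with TMM factors (unadjusted p of 0.0503 from limma) and with no filter (0.0534). *Slc25a15* entered it with TMM factors (0.0423), DESeq2 size factors (0.0419), edgeR (0.0490) and DESeq2 (0.0322). *Otc* changed sign with TMM factors (-0.0032), DESeq2 size factors (-0.0018), edgeR (-0.018), DESeq2 (-0.018) and on leaving out single livers (-0.079 to 0.095), and no other member did. Pathway list genes at an unadjusted p under 0.05 numbered 14 higher, with 8 to 18 on leaving out single livers. They were 9 without AAV8-Control replicate 2, 9 without AAV8-transgene replicate 3 and 8 without AAV8-transgene replicate 5. The number lower was 1, then 2 with DESeq2 and 0 to 3 on leaving out single livers. With the replicate block, it was 2, members at an unadjusted p under 0.05 numbered 3, and genes with an adjusted p under 0.05 over all genes numbered 5 against 2 without it. Same-numbered livers correlated at 0.13, 0.21, 0.075, 0.31 and 0.20 in their deviations from the group means, and 4 of 5 correlated best with their own number. The labels do not say that a number marks a shared litter or batch. Pairing was to be taken only if every correlation was over 0.1, and as replicate 3 missed this, the numbers were not taken as pairs, although the other 4 values hint at variation shared by number. The cause of these shifts was not tested.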
